A study of Mus musculus with 20 samples.

Results

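The 10 genes described here mark non-peptidergic and other unmyelinated (C-fibre) sensory neurons: the receptor genes Mrgprd, Mrgpra3, Mrgpre, Lpar3 and Lpar5, the transcription factor gene Runx1, the transporter gene Slc17a8, the filament gene Prph, the kinase gene Prkcd and the surface protein gene Cd55. They were chosen by name as markers and not by a rule on their values, though earlier results of these data were known. All 10 symbols were found among the 37620 genes of the expression table. The table holds RNA sequencing of whole dorsal root ganglia (DRG) taken at E18.5, shortly before birth, from C57Bl6 mice. From each of 5 male and 5 female embryos there was 1 library of lumbar ganglia (L4-5) and 1 of the ganglia at L6-S1, here called sacral, which gave 4 groups of 5 libraries. The labels list no transgene and no treatment. The study asked which features distinguish the ganglia that supply pelvic organs, whether they are already present before birth, and whether they differ between the sexes.

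Sensory neurons with unmyelinated axons fall into peptidergic cells, which release peptides such as substance P, and non-peptidergic cells, which largely innervate skin. In the non-peptidergic cells Runx1 is needed for the expression of Mrg-family receptors and of many channels, and most of these cells express the GDNF receptor Ret. Mrgprd marks a large class of mechanical and heat nociceptors of skin, Mrgpra3 marks itch neurons, and Slc17a8, the vesicular glutamate transporter VGLUT3, marks C-fibre low-threshold mechanoreceptors. These classes mature around and after birth.

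Values are log2 RPKM, a log2 scale of reads adjusted for the length of the gene and the depth of the library. Reads summed to between 19403023 and 39257771 per library, and each member's reads are given because they bear on the precision of its value. The share of reads from the 2 mitochondrial rRNA genes ranged from 18.1% to 61.4% and was high in both libraries of donors M5 and F7 and in the lumbar library of F8. General neuronal markers were present in every library, with a summed level of the 12 genes between 692 and 1389 RPKM in lumbar and between 353 and 1199 RPKM in sacral ganglia. In contrast, the 6 autonomic markers summed to at most 0.666 RPKM and the 6 matched spinal cord markers to at most 2.08 RPKM in any library. RNA of other tissues was present. Skeletal muscle markers summed to between 20.9 and 428 RPKM in lumbar and between 20.7 and 214 RPKM in sacral libraries. Red blood cell markers summed to between 62.6 and 233 RPKM in lumbar and between 66.8 and 208 RPKM in sacral libraries. Cartilage markers reached at most 28.8 RPKM, in a sacral library. The part of these tissues in the members' values was not tested.

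The members differed widely in level. Per gene length, Prph was the most abundant, with a mean level of 7.58 ± 0.57 log2 RPKM (SD, n = 20 libraries). A group of 5 genes followed, from Mrgprd (4.10 ± 0.68) through Cd55 (3.83 ± 0.24), Runx1 (3.71 ± 0.43) and Prkcd (3.50 ± 0.40) to Mrgpre (3.04 ± 0.56). Within this group the order of neighbours was not fixed: Mrgprd exceeded Cd55 in 14 of 20 libraries and Cd55 exceeded Runx1 in 13, and the mean difference of each pair was smaller than its SD. Runx1 exceeded Prkcd in 17 libraries, by 0.21 ± 0.27 on the log2 scale, and Prkcd exceeded Mrgpre in 19, by 0.46 ± 0.37. Lpar3 lay lower, at 1.46 ± 0.997 log2 RPKM, and below Mrgpre in all 20 libraries. The remaining members were rare: Lpar5 had a mean of -0.43 ± 0.73, Slc17a8 of -1.24 ± 0.84 and Mrgpra3 of -2.71 ± 1.87 log2 RPKM, and the differences between neighbours among these were within their SD.

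**Figure D1:**
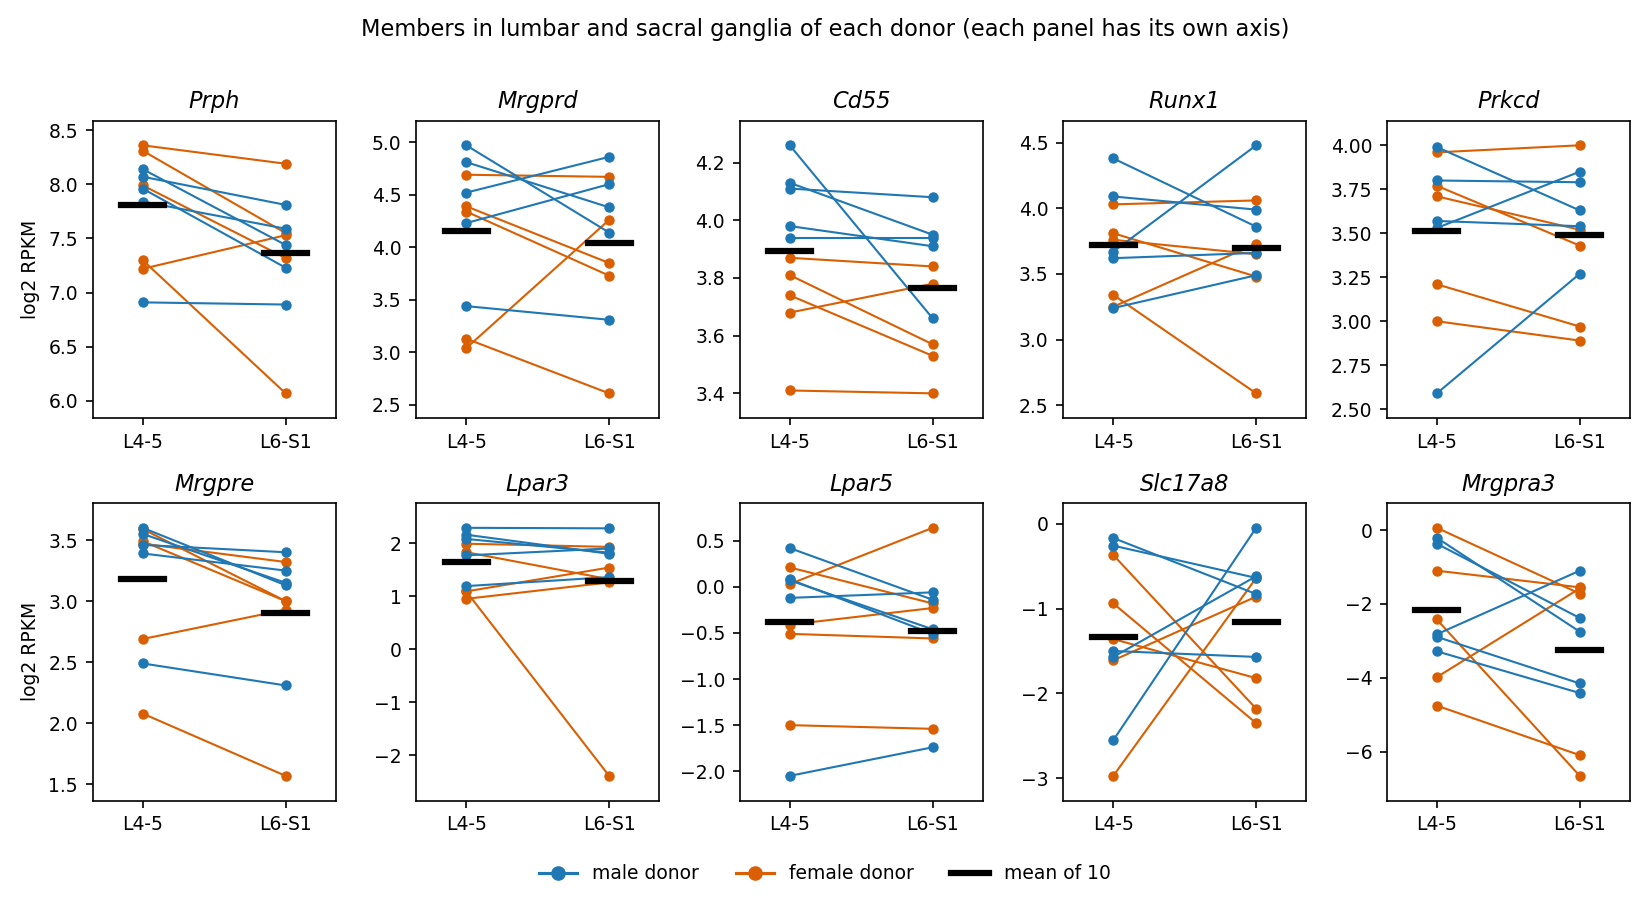
Level of each member (log2 RPKM) in the lumbar (L4-5) and sacral (L6-S1) library of each donor, with lines joining the libraries of 1 donor, colours marking sex and black bars the mean of 10. Prph runs downward along 9 of 10 lines, as do Mrgpre and Cd55, and for each of the 10 genes the ranges of the levels overlap.

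To ask whether these neurons' genes differ between spinal levels, sacral and lumbar libraries were compared by donor with limma across all 14529 genes whose mean reached 1 RPKM in a group. The filter kept 7 of the 10 members; Mrgpra3, Slc17a8 and Lpar5 were below it. None of the 7 passed an adjusted p of 0.05 (limma, Benjamini-Hochberg over all genes tested), where 6.73% of all tested genes did. At an unadjusted p under 0.05 there was 1 member, Prph, beside 3501 of all 14529 tested genes. A count-weighted limma fit (voom) on the recovered reads gave the same numbers of members, 0 and 1. All 7 estimates were below 0, but those of Runx1 and Prkcd, both -0.02, turned positive in some settings. The share of all tested genes below 0 is not given here, and most members varied together, so the 7 signs are not independent. The median sacral minus lumbar difference of the 7 was -0.13, beside -0.05 over all tested genes and -0.25 for the 12 general neuronal markers. Because these are bulk samples, fewer cells of a type and less RNA per cell cannot be told apart in any of these values.

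**Figure D2:**
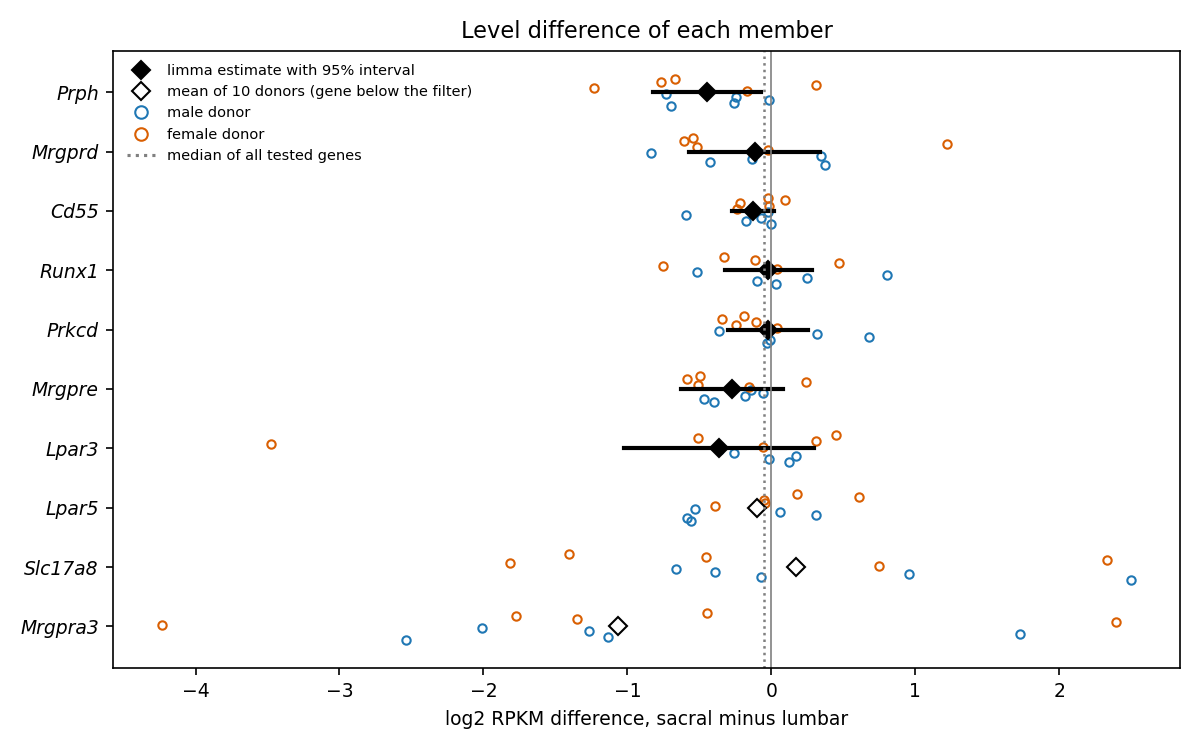
Sacral minus lumbar difference of each member in log2 RPKM: circles are donors, filled diamonds with bars the limma estimate and its 95% interval, and open diamonds the mean of 10 donors for the members below the filter. In this main fit the interval of Prph, from -0.82 to -0.07, is the only one of the 7 that leaves out 0.

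Prph encodes peripherin, an intermediate filament protein of unmyelinated sensory axons (mm9 chromosome 15, 98885605 to 98889409, plus strand). Its lowest, median and highest levels were 6.91, 7.97 and 8.36 log2 RPKM in lumbar and 6.07, 7.48 and 8.19 in sacral libraries, with 2883 to 21131 reads. The level ranges overlapped, but within donors the sacral library was the lower in 9 of 10, F8 being the exception. The difference was -0.45 ± 0.18 (SE; 95% interval -0.82 to -0.07), a sacral to lumbar ratio of 0.733, with an unadjusted p of 0.0218 and an adjusted p of 0.137 by limma. The call changed with the setting. With the mitochondrial rRNA share as a covariate the difference was -0.42 (adjusted p = 0.0386 by limma), and with the values centred on the 12 pan-neuronal genes it was -0.34 (adjusted p = 0.0155 by limma). With libraries weighted by quality it was -0.51 (adjusted p = 0.00925 by limma), and without donors M5, F7 and F8, a choice made after seeing the data, -0.51 (adjusted p = 0.0278 by limma). With donor as a fixed effect the adjusted p was 0.0669 by limma. The centre, here and below, was each library's median level of the 12 pan-neuronal genes. It was lower in sacral ganglia by 0.11 on average, while the median of the 12 genes' own differences was -0.25. Centring thus took away less than that median difference. The number of genes called over all tested genes also moved, from 978 in the main fit to 1293 with the covariate and 402 with the centring. It was 2998 with the quality weights and 1105 without M5, F7 and F8.

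Peripherin stands beside the neurofilament genes, which are most abundant in large myelinated neurons. Of the other 7 tested genes of the intermediate filament list, 3 passed the test, all lower in sacral ganglia: Nefm by -1.14 ± 0.21 (SE; adjusted p = 0.00381 by limma), Nefl by -0.90 ± 0.18 (adjusted p = 0.00687) and Nefh by -0.86 ± 0.18 (adjusted p = 0.00871). The sacral minus lumbar difference of Nefl and of Nefm lay below that of Prph in 10 of 10 donors, and that of Nefh in 9 of 10. On the log2 scale, the Prph difference was smaller by 0.69 ± 0.30 (SD, n = 10 donors) than that of Nefm, by 0.45 ± 0.23 than that of Nefl and by 0.41 ± 0.20 than that of Nefh. These values carry no test, since the 3 genes were named for having passed.

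**Figure D3:**
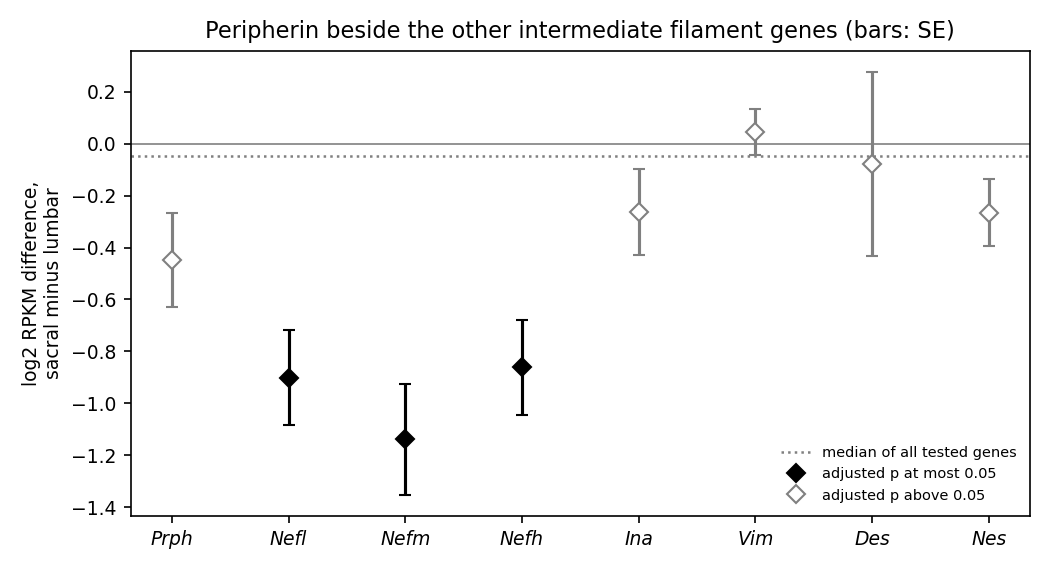
Sacral minus lumbar difference in log2 RPKM (limma estimate, bars SE) of Prph and of 7 other intermediate filament genes, filled where the adjusted p passed 0.05. Nefl, Nefm and Nefh lie between -1.14 and -0.86, below Prph at -0.45.

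The 250 bases before the start of Prph are shown because they hold motifs searched in all members' start regions (RefSeq, GRCm38.p6, plus strand, chr15:99054924-99055173, printed 5′ to 3′). Capitals mark ACCGCA, the reverse strand of the runt-type motif TGCGGT, which begins 41 bases before the start, and TATAAA, which begins 31 bases before it.

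Prph: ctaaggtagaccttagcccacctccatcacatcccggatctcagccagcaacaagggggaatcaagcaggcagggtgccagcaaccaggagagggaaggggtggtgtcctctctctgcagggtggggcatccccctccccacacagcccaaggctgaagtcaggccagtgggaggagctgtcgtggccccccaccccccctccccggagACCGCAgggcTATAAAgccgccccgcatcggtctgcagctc

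Runx1 encodes the runt transcription factor of the non-peptidergic lineage (mm9 chromosome 16, 92601712 to 92826311, minus strand). The levels ran from 3.24 through a median of 3.72 to 4.38 log2 RPKM in lumbar and from 2.59 through 3.69 to 4.48 in sacral libraries, with 1086 to 5502 reads. The groups overlapped almost entirely, and 5 donors were higher and 5 lower in sacral ganglia. The sacral minus lumbar difference was -0.02 ± 0.15 (SE; 95% interval -0.32 to 0.28; adjusted p = 0.945 by limma), and it became 0.08 with the values centred on the pan-neuronal genes. A non-coding gene on the opposite strand, Gm16801, overlaps Runx1, and its reads cannot be told apart from those of Runx1, since the sources used here do not say that counting used strand. Of the 5 related genes tested, Runx2, Runx3, the runt partner Cbfb and the co-repressor genes Cbfa2t3 and Runx1t1, none passed the test by limma. Those with the smallest adjusted p were Cbfa2t3, at -0.36 ± 0.12 (SE; adjusted p = 0.0788), and Runx2, at 0.78 ± 0.27 (adjusted p = 0.0817).

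The distal start region of Runx1 held runt motifs of its own. The stretch from 16 to 45 bases after that start, counted from 1 at the start, is printed on the gene's strand with ACCACA, the reverse strand of TGTGGT, in capitals (RefSeq, GRCm38.p6, chromosome 16).

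Runx1: gacctcataaacaACCACAgaACCACAagt

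TGTGGT on either strand was present in 16.8% of all 32851 start windows of 300 bases, TGCGGT in 6.45% and TATAAA in 13.6%. Of the 10 members 9 had such windows, 13 in all, and Mrgpra3 had none. Besides Prph and Runx1, Lpar5 held TGTGGT and Prkcd held TATAAA, while in the windows of Mrgprd, Mrgpre, Lpar3, Cd55 and Slc17a8 none of these letters was found. A match is a description of the letters only.

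Mrgprd encodes a receptor for beta-alanine (mm9 chromosome 7, 152500740 to 152509964, plus strand). Its levels ran from 3.04 through a median of 4.37 to 4.97 log2 RPKM in lumbar and from 2.61 through 4.20 to 4.86 in sacral libraries, with 438 to 3331 reads. The lowest libraries at both levels came from donors M5 and F7 and, at the lumbar level, F8, and the level ranges overlapped. The sacral library was lower in 7 of 10 donors, but in F8 it was higher by 1.22, the largest difference of any donor for this gene. The difference was -0.11 ± 0.22 (SE; 95% interval -0.57 to 0.34; adjusted p = 0.776 by limma). A sacral to lumbar ratio from 0.673 to 1.27 lay within this interval. Single donors moved the value, from -0.28 without F8 to -0.03 without M8, with -0.05 without F9 and -0.06 without F7 or F10, and it was -0.01 with the values centred on the pan-neuronal genes, -0.25 with quality weights and -0.26 without M5, F7 and F8. None of these settings brought it past the threshold. The bases before its start are printed as the reference for the most abundant receptor gene of the set; they hold none of the 3 motifs (RefSeq, GRCm38.p6, plus strand, chr7:145314585-145314834).

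Mrgprd: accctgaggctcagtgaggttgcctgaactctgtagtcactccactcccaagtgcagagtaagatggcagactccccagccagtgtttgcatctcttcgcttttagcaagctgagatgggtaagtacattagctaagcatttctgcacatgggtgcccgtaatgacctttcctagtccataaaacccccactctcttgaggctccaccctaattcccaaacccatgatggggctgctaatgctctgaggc

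Mrgpre, an orphan receptor gene of the same family (mm9 chromosome 7, 150964270 to 150970405, minus strand), was the lower at L6-S1 in 9 of 10 donors, again with F8 as the exception. Its levels ran from 2.08 through 3.47 to 3.60 log2 RPKM in lumbar and from 1.57 through 3.07 to 3.40 in sacral libraries, with 258 to 1579 reads. M5 and F7 had the lowest values at each level, and the level ranges overlapped. The difference was -0.27 ± 0.17 (SE; 95% interval -0.63 to 0.08; adjusted p = 0.328 by limma), and -0.17 with the values centred on the pan-neuronal genes (adjusted p = 0.39 by limma). It passed the threshold in 2 alternatives, at -0.35 with quality weights (adjusted p = 0.043 by limma) and at -0.34 without donors M5, F7 and F8 (adjusted p = 0.0236 by limma). The main fit used 1 donor correlation, 0.342, for all genes. With donor as a fixed effect the SE was smaller, at 0.09, and the adjusted p was 0.0937 by limma. A microRNA gene on the other strand overlaps Mrgpre.

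Mrgpra3, a receptor of itch neurons that responds to chloroquine (mm9 chromosome 7, 54844320 to 54856742, minus strand), was close to the detection limit. It had 154 reads in the 10 lumbar and 60 in the 10 sacral libraries, from 0 to 47 per library, and 2 sacral libraries, F3 and F8, had 0 reads, which allows up to 3. Of the lumbar libraries 7 had more than 3 reads and of the sacral ones 6. The mean difference between a donor's libraries was -1.06 ± 1.94 (SD, n = 10), with 8 donors lower in sacral ganglia and M5 and F7 higher (p = 0.113, adjusted p = 0.34 over the 3 rare members, two-sided exact permutation of the signs). Without M5, F7 and F8 it was -1.91 with 7 of 7 donors lower (exact permutation test, adjusted p = 0.0469). Leaving out M5 and F7 removed the only donors higher in sacral ganglia, so this agreement of signs was fixed in advance. The unadjusted p of 0.0156 (exact permutation test) is the smallest that 7 donors can give. M5, F7 and F8 were left out for their mitochondrial rRNA share after the data had been seen. A difference at so few reads also moves with the value given to a count of 0, here that of 0.5 reads. Only uniquely mapped reads were counted, so reads shared with near-identical family members are missing from this gene.

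Of 18 other listed genes of the Mrgpr family 3 reached the filter, and 2 passed the test by limma. Mrgpra1 was lower in sacral ganglia by -0.65 ± 0.18 (SE; adjusted p = 0.0319; 9 of 10 donors lower), from a mean level of 3.63 to 2.98 log2 RPKM. Mrgprf, a family member that is not specific to neurons, was higher by 1.02 ± 0.26 (adjusted p = 0.0248; 8 of 10 donors higher). Mrgprx1, the third, did not pass, at -0.50 ± 0.22 (adjusted p = 0.173), with a mean level of 7.07 log2 RPKM.

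Lpar3, a receptor for lysophosphatidic acid (mm9 chromosome 3, 145883925 to 145949178, plus strand), had between 93 and 396 reads in all libraries but 1. The exception was the sacral library of F7, with 11 reads and a level of -2.39 log2 RPKM, where the other 4 sacral female libraries lay between 1.26 and 1.93. Levels were 0.95, 1.80 and 2.29 (lowest, median, highest) in lumbar and -2.39, 1.67 and 2.28 in sacral libraries. The difference was -0.36 ± 0.32 (SE; 95% interval -1.02 to 0.30; adjusted p = 0.499 by limma), with 6 donors lower and 4 higher. Without donor F7 it shrank to -0.01 (adjusted p = 0.98 by limma).

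Lpar5, another receptor for the same lipid (mm9 chromosome 6, 125017938 to 125032490, plus strand), had 6 to 60 reads per library. Its mean difference was -0.10 ± 0.41 (SD, n = 10 donors; exact sign-flip permutation test, p = 0.439, adjusted p = 0.659), with 4 donors higher and 6 lower. Of 7 other tested genes of this lipid's pathway 2 passed, both higher in sacral ganglia: Enpp2, which makes lysophosphatidic acid (0.82 ± 0.18, SE; adjusted p = 0.00995 by limma), and Plpp3, a phosphatase that degrades it (0.35 ± 0.09; adjusted p = 0.0242 by limma). Fibroblast markers, of which 4 of 8 tested passed the test as higher in sacral ganglia and none as lower, had a summed level of 235 to 520 RPKM in lumbar and 319 to 678 RPKM in sacral libraries; their part in these 2 values was not tested.

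Slc17a8 (mm9 chromosome 10, 89036765 to 89083998, minus strand) had 23 to 143 reads per library and no common direction. The donor differences ran from -1.81 in F7 to 2.50 in M1, with 4 donors higher and 6 lower in sacral ganglia. Their mean was 0.17 ± 1.45 (SD, n = 10; exact sign-flip permutation test, p = 0.709, adjusted p = 0.709). Among 3 other tested genes of the transporter list, Slc17a7, the vesicular glutamate transporter VGLUT1, was lower in sacral ganglia of 10 of 10 donors, by -1.29 ± 0.27 (SE; adjusted p = 0.00744 by limma).

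Prkcd, the kinase PKC delta (mm9 chromosome 14, 31408542 to 31439396, minus strand), ran from 2.59 through 3.64 to 3.99 log2 RPKM in lumbar and from 2.89 through 3.53 to 4.002 in sacral libraries, with 490 to 3106 reads. The groups overlapped, and the difference was -0.02 ± 0.13 (SE; 95% interval -0.30 to 0.25; adjusted p = 0.925 by limma). It became 0.08 with the values centred on the pan-neuronal genes. Of 8 other tested kinases of the family, Prkcq alone passed, lower in sacral ganglia by -0.52 ± 0.14 (adjusted p = 0.0272 by limma; 9 of 10 donors lower).

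Cd55, which protects cells from complement (mm9 chromosome 1, 132335604 to 132359321, minus strand, overlapped on the other strand by the non-coding Gm16083), had the smallest spread of the set. Levels were 3.41, 3.91 and 4.26 log2 RPKM (lowest, median, highest) in lumbar and 3.40, 3.81 and 4.08 in sacral libraries, with 1179 to 2841 reads. The sacral library was lower in 9 of 10 donors, by -0.13 ± 0.07 on average (SE; 95% interval -0.28 to 0.02; adjusted p = 0.279 by limma). The difference was -0.02 with the values centred on the pan-neuronal genes (adjusted p = 0.957 by limma) and -0.07 without donor M7 (adjusted p = 0.522 by limma).

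Among 18 tested co-markers of the same neurons, such as Ret, Gfra2, P2rx3 and the sodium channel genes Scn10a and Scn11a, 1 passed the level test by limma. Sst, the peptide somatostatin of a class of itch neurons, was higher in sacral ganglia by 1.41 ± 0.36 (SE; adjusted p = 0.025; 8 of 10 donors higher), at a mean level of 0.09 log2 RPKM and 2 to 64 reads per library. The median difference of the 18 was -0.24, beside -0.25 for the 12 pan-neuronal genes and -0.05 for all tested genes. Of the pan-neuronal genes 1 passed, Snap25, lower in sacral ganglia. Per donor, the median level of the pan-neuronal genes was lower in sacral ganglia by 0.11 on the log2 scale, with an SD of 0.37 (6 of 10 donors lower; exact sign-flip permutation test, p = 0.375).

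A difference between the sexes was then sought within each level. The numbers that end the sample labels fall in separate runs for male and female libraries. What these numbers stand for is not stated, so a sex difference cannot be told apart from whatever they follow. By limma none of the 7 tested members passed in lumbar ganglia, where 0.33% of tested genes did, nor in sacral ganglia, where 1.01% did. At an unadjusted p under 0.05 there was 1 member at each level, Cd55. Over all 14529 tested genes there were 1203 in lumbar and 2256 in sacral ganglia. The voom fit also called 0 members at each level, with 1 and 2 members at an unadjusted p under 0.05. In lumbar ganglia the Cd55 levels of males were 3.94, 4.13, 3.98, 4.26 and 4.11 log2 RPKM and those of females 3.81, 3.41, 3.74, 3.68 and 3.87. All 5 female values lay below all 5 male values; it was the only tested member whose lumbar groups did not overlap, as the groups of 2.19% of tested genes did not. The female minus male difference was -0.38 ± 0.12 (SE; 95% interval -0.64 to -0.12; unadjusted p = 0.00608, adjusted p = 0.311 by limma), and -0.17 ± 0.26 with the values centred on the pan-neuronal genes (adjusted p = 0.866 by limma). In sacral ganglia none of the 7 members had groups apart, where 3.96% of tested genes did. The Cd55 levels were, in males, 3.94, 3.95, 3.91, 3.66 and 4.08 log2 RPKM and, in females, 3.57, 3.40, 3.53, 3.78 and 3.84. Only the male M7, at 3.66, fell among the females. The difference was -0.28 ± 0.12 (SE; 95% interval -0.54 to -0.03; adjusted p = 0.283 by limma), and it became 0.06 with the values centred on the pan-neuronal genes. That centre itself ranged from -1.20 in the sacral library of F7 to 0.67 in the lumbar library of M8. Cd55 followed the other members less closely, and the part of neuronal content in its sex difference was not tested.

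**Figure D4:**
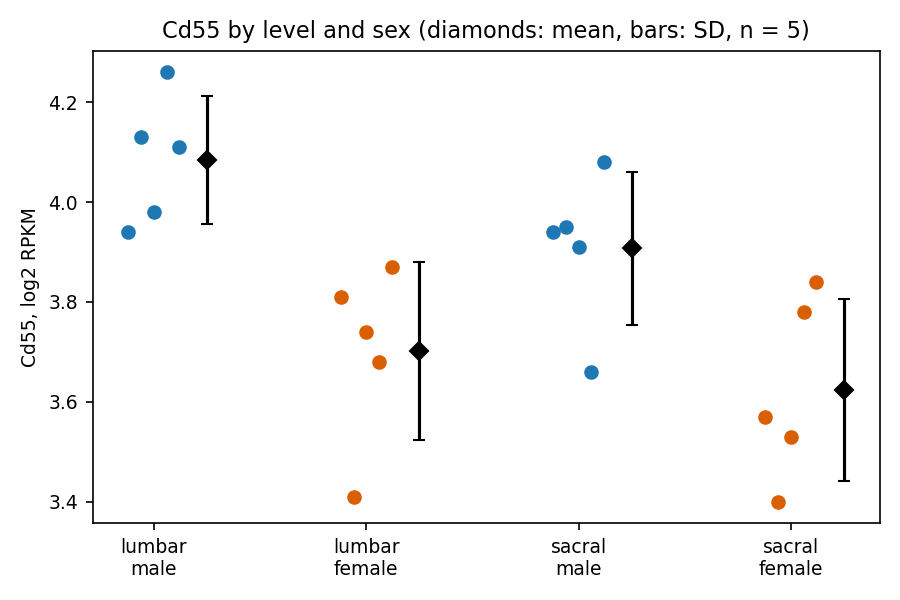
Cd55 level (log2 RPKM) in each library of the 4 groups, with the mean and SD of 5. The lumbar male values lie between 3.94 and 4.26 and the lumbar female values between 3.41 and 3.87.

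The other 6 tested members differed between the sexes by -0.51 to 0.05 in lumbar and by -1.10 to -0.06 in sacral ganglia on the log2 scale. The value of -1.10 was that of Lpar3 (adjusted p = 0.344 by limma) and rested on the sacral library of F7, without which it was -0.32. For the 3 rare members, the exact permutation test between 5 male and 5 female libraries gave adjusted p-values from 0.214 to 0.778. No member's level difference was shown to depend on sex: the adjusted p of the interaction was 0.995 for each of the 7 by limma and from 0.714 to 0.984 for the rare members by exact permutation, 0 of the 7 had an unadjusted p under 0.05, and 0% of all tested genes were called (470 of them at an unadjusted p under 0.05).

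Across libraries, most members varied together. Among Mrgprd, Mrgpre, Runx1, Lpar3, Prph and Prkcd, Pearson's r over the 20 libraries ranged from 0.577 to 0.904 in the 15 pairs, and from 0.569 to 0.915 within groups. Lpar5, at 6 to 60 reads per library, had r from 0.521 to 0.812 with these 6 genes. Cd55 followed them less closely, with r from 0.285 to 0.581. For the rare members Slc17a8 and Mrgpra3, r with the same 6 genes ran from 0.139 to 0.435 and from -0.128 to 0.139. The points share donor, library and depth, and the values are descriptions with no test. The 5 tested genes whose pattern was most like that of Mrgprd over 20 libraries were Antxr2 (r = 0.973), Usp22 (r = 0.967), Sv2c (r = 0.964), Atrnl1 (r = 0.964) and Tmtc1 (r = 0.963). The median r with Mrgprd was 0.831 for the pan-neuronal genes, 0.863 for the 18 co-markers, -0.608 for 8 macrophage markers and 0.219 for all other tested genes. It was 0.795 for 6 other members and 0.734 for the 5 genes related to Runx1. Markers of other cells were positive too, at 0.633 for 10 glial, 0.631 for 10 large myelinated neuron and 0.494 for 7 peptidergic neuron markers.

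The mitochondrial rRNA share moved with the same pattern. Within lumbar libraries (n = 10) all 10 members had a negative Pearson's r with the share, and 7 passed an adjusted p of 0.05 in a permutation test (20 relations). The relation was computed for the members only, so whether it sets them apart from other genes was not tested. Within sacral libraries 9 members were negative and 4 of them passed, 6 by Spearman's rho. Mrgpra3, at 0 to 12 reads in these libraries, was positive there (r = 0.691, rho 0.83, permutation p = 0.0301 and 0.00448, adjusted p = 0.0501 and 0.0179), with an r of 0.452 without the 2 extreme libraries. For Prkcd the lumbar r was -0.959 (rho -0.939, permutation p = 0.00018 and 0.00021, adjusted p = 0.0028 and 0.0042) and the sacral r was -0.763 (rho -0.806, permutation p = 0.0113 and 0.00746, adjusted p = 0.0205 and 0.0187). Leaving out the 2 libraries of most extreme share, the r of Prkcd was -0.944 and -0.596. For Cd55 r was -0.331 in lumbar (rho -0.261, permutation p = 0.35 and 0.47, adjusted p = 0.408 and 0.553) and -0.116 in sacral libraries (rho -0.224, permutation p = 0.746 and 0.539, adjusted p = 0.746 and 0.589), and without the 2 extreme libraries -0.247 at each level. The level comparison with this share as a covariate is given above for Prph; under it the differences of Mrgprd and Mrgpre were -0.08 (adjusted p = 0.738 by limma) and -0.25 (adjusted p = 0.239 by limma).

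**Figure D5:**
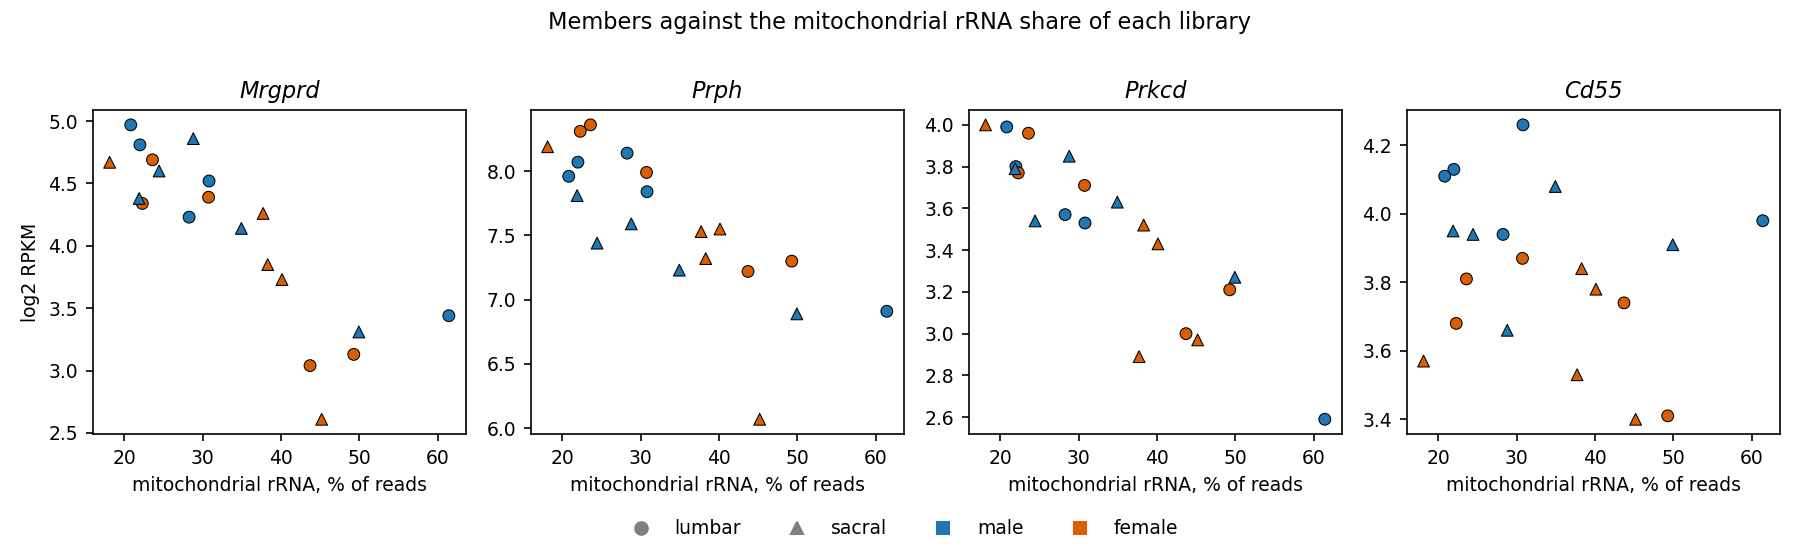
Level of 4 members (log2 RPKM) against the percent of reads from mitochondrial rRNA in each of 20 libraries, with symbols for level and colours for sex. Mrgprd, Prph and Prkcd fall as the share rises, while Cd55 does not follow it closely (r = -0.331 in lumbar and -0.116 in sacral libraries).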

How the data were processed

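The authors amplified total RNA of whole DRG (Ovation RNA-Seq System v2), made Nextera XT libraries, aligned reads to mm9 with Subread and, of those with a unique position, counted the number per Ensembl gene (featureCounts). They scaled the counts by TMM (edgeR 3.12.1) and voom (limma 3.26.9, per the submitters' processing notes) and deposited log2 RPKM values. Groups and donors came from the labels. Reads were recovered from the deposited values with GENCODE M1 exon lengths (mm9); 98.27% were whole within 0.05 of a read, and library sums cover the 28324 genes where all were. A blank was set to the value of 0.5 reads. Reads carry no molecular identifiers, so a limit on a count of 0 covers counting error only. Tests used limma 3.58.1 (R 4.3.3) with 4 group means, donor as a block (duplicateCorrelation, 0.342, pairing by embryo from the labels) and a variance trend, two-sided, and were tested on simulated data. Members below 1 RPKM in every group were compared by exact permutation. Relations with the mitochondrial share used 100000 permutations.

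All 10 members were named; of each related gene list those past the threshold, at most 4, or else the 2 of smallest adjusted p, and for Mrgprd the 5 genes of highest correlation; 1 related list is not reported here; other names serve as examples, chosen after their values were seen. Members and lists were chosen with earlier results of these data known. Promoter sequences are from RefSeq (GRCm38.p6).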

Additional observations from a re-analysis of the deposited data

Results flagged for a closer look

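In 7 of 40 groups of 5 libraries, 1 library stood apart from the other 4 of its group by Dixon's test; chance alone gives about 1 in 20 groups. The 40 checks are not independent, since the same libraries recur. All 7 were the lowest of their group and came from donor M5 or F7. M5 was low for Mrgpre in lumbar (2.49 log2 RPKM, the other males 3.39 to 3.60) and sacral ganglia (2.31 against 3.13 to 3.40), for Prph in lumbar ganglia (6.91 against 7.84 to 8.14), and for Lpar5 in lumbar (-2.05 against -0.12 to 0.42) and sacral ganglia (-1.74 against -0.51 to -0.06). F7 was low in sacral ganglia for Mrgpre (1.57 against 2.93 to 3.32) and for Lpar3 (-2.39 against 1.26 to 1.93). The mitochondrial rRNA share was 61.4% and 49.9% in the libraries of M5 and 49.3% and 45.2% in those of F7; its part in these values was not tested.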

How the results depend on the processing

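The 10 members gave 40 differences, and of their 639 alternatives 587 kept direction and side of the threshold, 45 turned the direction of a value that was not called, none of these past the threshold, and 7 brought a member past it, all in the level comparison. Members past the threshold there numbered 0, and 1 with the values centred on pan-neuronal genes, 1 with the mitochondrial rRNA share as a covariate (Prph in both), 2 with sample weights and 2 without donors M5, F7 and F8 (Prph and Mrgpre in both), the last chosen after seeing the data; with each donor left out in turn it was 0. Mrgpra3 reached -1.91 without these donors. The donor block as a pairing mattered for the count over all genes, 978 with it and 154 without, and changed no member's call. Other counts were 402 (pan-neuronal centring), 507 (no filter), 1293 (mitochondrial rRNA share as a covariate) and 2998 (sample weights). The count was 1105 without M5, F7 and F8, and 401 to 1594 with a donor left out. Centring moved the median difference of all genes from -0.05 to 0.06. The female minus male counts were 48 in lumbar (14 to 81 with a donor left out; 20 to 228 otherwise) and 147 in sacral ganglia (55 to 443; 52 to 751). Turned signs for the level difference were 0.081 by centring and 0.12 in male donors (Prkcd; -0.095 to 0.036 with a donor left out), 0.085 and 0.095 (Runx1; -0.11 to 0.056), and for Slc17a8 -0.085 to 0.40 with a donor left out. For female minus male in lumbar ganglia they were 0.018 without M5, F7 and F8 (Mrgpre; -0.44 to 0.011 with a donor left out) and 0.047 by centring (Runx1), and with a donor left out Prkcd ranged from -0.19 to 0.17 and Prph from -0.16 to 0.21. In sacral ganglia they were, by centring, 0.059 (Cd55), 0.059 (Mrgpre; -0.47 to 0.014 with a donor left out), 0.093 (Prkcd) and 0.28 (Prph; -0.27 to 0.26), and for Prph 0.083 with the covariate, 0.029 with weights and 0.17 without M5, F7 and F8. For the interaction they were 0.090 without those donors (Lpar3; -0.87 to 0.12), -0.054 with weights and -0.26 without those donors (Mrgprd; -0.29 to 0.17), 0.087 by centring and 0.043 with the covariate (Mrgpre; -0.18 to 0.022), 0.021 by centring (Prph; -0.32 to 0.067), and Cd55 ranged from -0.0093 to 0.14. The cause of these changes was not tested. The planned edgeR and DESeq2 alternatives were not run, because the deposited values are log2 RPKM and not counts; the voom fit on recovered reads was added in their place after seeing the data. Depth limits Mrgpra3, Lpar5 and Slc17a8, whose libraries held as few as 0, 6 and 23 reads.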
